A study of Mus musculus with 7 samples.

Results

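The genes described here are 40 mouse genes of the cell division cycle, measured by RNA sequencing in PanMeso cells, mesothelial cells of mouse pancreas origin that carry the fluorescent protein eGFP. They were chosen by symbol, and each symbol was matched to the Ensembl identifier of a count table of 54532 genes. All 40 were found and all 40 passed the filter on low counts that left 13784 genes for testing. By role they were divided into 13 genes of DNA replication (Mcm2 to Mcm7, Mcm10, Cdc6, Cdt1, Pcna, Tyms, Rrm1 and Rrm2), 17 genes of mitosis and 10 others (Mki67, 3 cyclin genes, Cdk2, Cdc45, Gmnn and the transcription factor genes E2f1, Foxm1 and Mybl2). The mitotic genes were Cdk1, Ccnb1, Ccnb2, Aurka, Aurkb, Plk1, Bub1, Bub1b, Birc5, Cdc20, Ube2c, Cenpa, Cenpe, Cenpf, Tpx2, Nusap1 and Top2a.

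The study set PanMeso cells grown in culture beside the same kind of cells recovered from tumours. The Parental group (n = 3) was cultured at 33 °C in a medium with serum, 3.3 nM epidermal growth factor, 400 nM hydrocortisone and 870 nM insulin, and moved to 37 °C for 3 days before experiments. For the other groups, cultured PanMeso cells were injected into the pancreas together with cells of a pancreatic cancer line, BMFA3 (n = 2) or CT1BA5 (n = 2), and eGFP-positive cells were sorted by flow cytometry from the tumours that formed. All groups carry eGFP and come from the same cultured cells. Tumour growth, the loss of the culture conditions, among them the medium, tissue dissociation and sorting set the tumour groups apart from Parental together. Their parts in a difference cannot be told apart. The labels do not say whether replicates were separate cultures or tumours, and p-values measure only the spread between these samples.

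Parental libraries held 10096839 to 19210598 counts, BMFA3 libraries 14792189 to 16501058 and CT1BA5 libraries 14327365 to 16981596. Levels are given as CPM, the count relative to a library size scaled by the trimmed mean of M-values (TMM). The 10 mesothelial markers, among them Msln and Upk3b, were all detected, and their summed level, most of it Msln, Upk3b and Upk1b in Parental, went from 11701 to 12804 CPM (Parental) to 1978 to 1980 CPM (BMFA3) and 874 to 901 CPM (CT1BA5). Wt1, a transcription factor of mesothelium in the same list, stood at 231, 256 and 269 CPM in Parental, 252 and 262 CPM in BMFA3 and 122 and 114 CPM in CT1BA5, so that BMFA3 lay within the Parental range. Ptprc, the gene of the leukocyte antigen CD45, had 0 counts in every library, while some macrophage markers were detected in all groups. Epcam, a marker of tumour epithelium, did not exceed 0.389 CPM in any library, while 4 of the 10 markers of that list exceeded 1 CPM in some library.

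A dividing cell copies its DNA in S phase and separates the copies in mitosis. Before S phase, Cdc6 and Cdt1 load the Mcm2 to Mcm7 ring, the core of the replicative helicase, onto replication origins, and cyclin-dependent kinases then start the helicase. Late in the cycle, Cdk1 with B-type cyclins drives entry into mitosis, and the anaphase-promoting complex with Cdc20 ends it. Transcription of replication genes is known to rest largely on E2F factors, and that of mitotic genes on the DREAM, Mybl2 and Foxm1 complexes, which act through an element called the cell cycle genes homology region (CHR), often beside CCAAT boxes bound by NF-Y. Normal mesothelium in the adult is known to divide slowly and to divide more after injury or in culture.

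Promoter sequences of 3 mitotic and 3 replication genes are shown because the gene classes differ in these elements. Each is the RefSeq window (GRCm38.p6) from 250 bases before to 50 bases after the transcription start, written in the direction of transcription, and capitals mark matches to CHR (TTTGAA), the CCAAT box (CCAAT) or the E2F words TTTCGCGC, TTTGGCGC and TTTCCCGC on either strand. Adjacent or overlapping matches run together, as in Mcm5, where TTTCGCGC and the reverse strand form of TTTGGCGC overlap.
Cdk1, chr10:69352863-69353162, minus strand: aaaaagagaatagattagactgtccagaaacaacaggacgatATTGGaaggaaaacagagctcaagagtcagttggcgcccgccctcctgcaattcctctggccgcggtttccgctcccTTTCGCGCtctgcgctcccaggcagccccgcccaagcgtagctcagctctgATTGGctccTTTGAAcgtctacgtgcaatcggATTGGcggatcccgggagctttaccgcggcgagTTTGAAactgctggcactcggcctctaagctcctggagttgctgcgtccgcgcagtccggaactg
Ccnb2, chr9:70421505-70421804, minus strand: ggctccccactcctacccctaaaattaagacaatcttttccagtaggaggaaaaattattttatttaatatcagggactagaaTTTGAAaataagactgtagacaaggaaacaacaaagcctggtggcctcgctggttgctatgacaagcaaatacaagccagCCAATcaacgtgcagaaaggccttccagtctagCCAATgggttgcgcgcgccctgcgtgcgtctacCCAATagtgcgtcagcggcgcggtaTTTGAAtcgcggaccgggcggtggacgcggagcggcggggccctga
Cenpf, chr1:189688037-189688336, minus strand: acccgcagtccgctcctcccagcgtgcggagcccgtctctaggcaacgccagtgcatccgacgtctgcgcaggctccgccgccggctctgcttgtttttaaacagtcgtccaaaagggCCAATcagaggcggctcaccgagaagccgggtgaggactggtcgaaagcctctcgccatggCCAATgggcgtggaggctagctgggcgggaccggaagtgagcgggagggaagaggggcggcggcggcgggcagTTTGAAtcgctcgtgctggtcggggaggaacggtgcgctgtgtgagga
Mcm5, chr8:75109259-75109558, plus strand: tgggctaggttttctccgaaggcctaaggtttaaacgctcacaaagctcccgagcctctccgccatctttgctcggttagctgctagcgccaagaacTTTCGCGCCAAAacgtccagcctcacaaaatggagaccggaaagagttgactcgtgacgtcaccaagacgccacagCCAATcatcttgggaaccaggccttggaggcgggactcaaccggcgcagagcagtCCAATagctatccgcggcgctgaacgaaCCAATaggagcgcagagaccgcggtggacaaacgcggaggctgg
Mcm6, chr1:128359656-128359955, minus strand: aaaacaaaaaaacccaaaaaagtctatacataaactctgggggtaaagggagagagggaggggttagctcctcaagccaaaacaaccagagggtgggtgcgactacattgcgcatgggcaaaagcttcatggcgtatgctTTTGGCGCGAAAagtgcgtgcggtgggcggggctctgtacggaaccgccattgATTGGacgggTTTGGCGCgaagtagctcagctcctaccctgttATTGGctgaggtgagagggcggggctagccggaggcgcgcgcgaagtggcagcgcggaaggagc
Mcm3, chr1:20820263-20820562, minus strand: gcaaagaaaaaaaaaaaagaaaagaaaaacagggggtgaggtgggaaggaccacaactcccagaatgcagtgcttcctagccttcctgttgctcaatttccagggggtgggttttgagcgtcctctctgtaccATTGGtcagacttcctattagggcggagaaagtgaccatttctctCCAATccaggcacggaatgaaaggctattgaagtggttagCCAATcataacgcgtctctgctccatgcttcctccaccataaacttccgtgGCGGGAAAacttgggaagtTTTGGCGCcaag

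The Cdk1 window held CHR 71 and 15 bases before the start, CCAAT boxes beside it and an E2F word 131 bases before the start. In the windows of Ccnb2 and Cenpf, CHR began at bases 5 and 3, counting the start as base 1, with CCAAT boxes before it, and Ccnb2 held another CHR 167 bases before the start. The Mcm5, Mcm6 and Mcm3 windows held E2F words and CCAAT boxes and no CHR match. RefSeq windows were found for 33 of the 40 genes, Mcm7 having 2. The genes with no window in that table were Ccne2, Mcm4, Tpx2, Ccna2, Foxm1, Gmnn and Aurkb.

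Among the windows found, CHR was present in 10 of 15 mitotic windows (66.7%), 1 of 13 replication windows (7.69%, that of Mcm2) and 17.9% of all 32851 windows of the same length. Under a wider definition, TTTGAA or TTCGAA, the count in replication windows was 2 and that in mitotic windows 11. A CCAAT box was present in 13 of 15 mitotic windows (86.7%), 10 of 13 replication windows (76.9%) and 37.4% of all windows. E2F words were present in 6 of 13 replication windows (46.2%), 1 of 15 mitotic windows (6.67%, that of Cdk1) and 1.84% of all windows. These are matches of letters and not measured binding. The fold changes described next differed little with them: the median log2 fold change in tumour-sorted cells was -1.94 for the 13 genes with CHR and -1.94 for the 20 without, and -1.83 for the 8 genes with an E2F word and -1.96 for the 25 without.

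**Figure D1:**
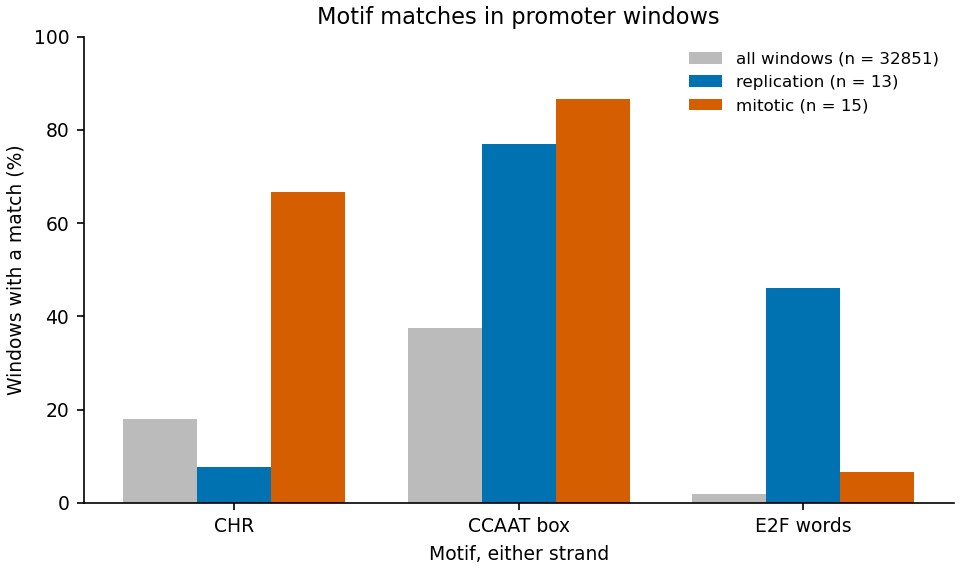
Share of promoter windows (%) that hold CHR, a CCAAT box or an E2F word on either strand, for the 13 replication windows, the 15 mitotic windows and all 32851 windows. CHR was present in 66.7% of mitotic and 7.69% of replication windows, and E2F words in 6.67% and 46.2%.

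All 40 genes fell in cells sorted from tumours. In the mean of both tumour groups against Parental, 40 of 40 were lower by edgeR's quasi-likelihood test at a Benjamini-Hochberg adjusted p of 0.05 over all 13784 genes, where the background was 34.8% of genes lower. The same held in BMFA3 against Parental (40 of 40, background 29.9%) and in CT1BA5 against Parental (40 of 40, background 35.1%). These comparisons share the Parental libraries and are not independent. The decrease was over 2-fold by edgeR's glmTreat test for 33 genes in both tumour groups together (background 10.1%), for 32 in BMFA3 (6.68%) and for 35 in CT1BA5 (12.5%). The 7 genes that did not pass that test in both tumour groups together were Tyms, Rrm1, Aurka, Cenpa, Cdk2, Ccne1 and E2f1.

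Parental and tumour libraries did not overlap for any of the 40 genes in any of these comparisons, while 28.4% of all genes were lower without overlap in both tumour groups together, 36.8% in BMFA3 and 38.9% in CT1BA5. The median log2 fold change of the 40 genes was -1.95 in both tumour groups together, -1.71 in BMFA3 and -2.09 in CT1BA5, beside medians of 0.01, 0.00 and -0.00 over all tested genes. Individual genes ranged from -4.05 (Cenpf) to -0.23 (Tyms) in both tumour groups together. By role, the decrease was over 2-fold for 11 of 13 replication genes, 15 of 17 mitotic genes and 7 of 10 others, the last with a median of -2.09. Cenpf (ENSMUSG00000026605) lies at chr1:189640606-189688086, Mki67 (ENSMUSG00000031004) at chr7:135689784-135716361, Mcm5 (ENSMUSG00000005410) at chr8:75109569-75128439 and Tyms (ENSMUSG00000025747) at chr5:30058202-30073617 of mm10. In bulk RNA, fewer cycling cells and less RNA per cycling cell cannot be told apart.

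**Figure D2:**
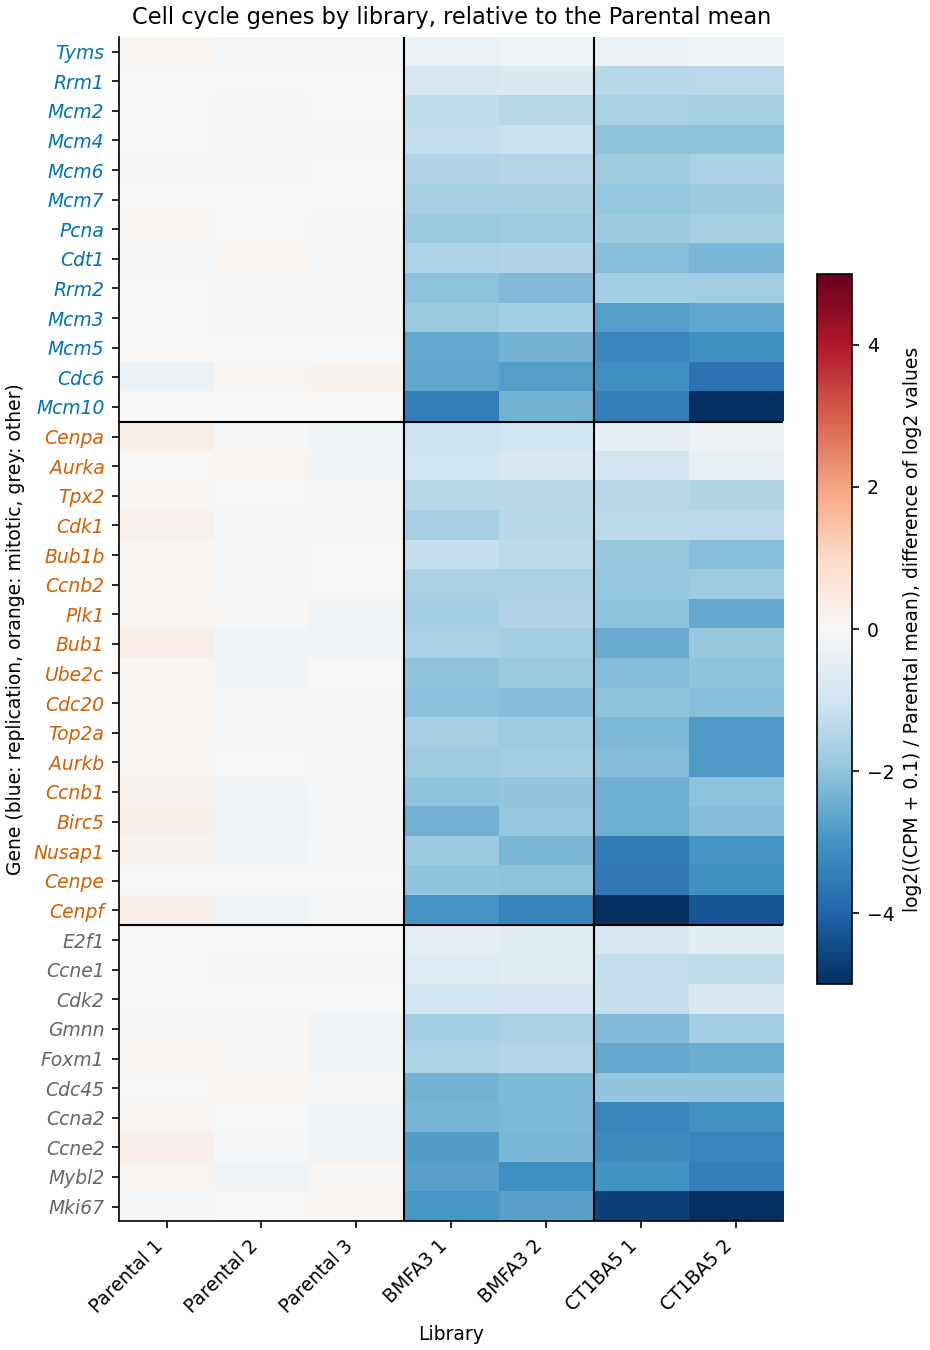
Level of each gene in each library as log2(CPM + 0.1) minus the Parental mean, with libraries on the x axis, genes by role on the y axis and colours that stop at -5 and 5. All cells of the BMFA3 and CT1BA5 columns are blue. They are faint for Tyms, E2f1, Cenpa in CT1BA5 and Aurka in CT1BA5 replicate 2, and deepest for Mki67, Cenpf and Mcm10.

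Origin licensing genes fell steeply. Cdc6, which loads the helicase ring, stood at 11.5, 15.7 and 16.2 CPM in the Parental libraries, 2.25 and 2.05 CPM in BMFA3 and 1.62 and 1.01 CPM in CT1BA5. Its lowest Parental library was over 5 times its highest tumour library, and the log2 fold change in both tumour groups together was -3.10 ± 0.18 (SE; edgeR adjusted p = 1.05e-11). Cdt1, its partner in loading, had a log2 fold change of -1.88 ± 0.09 (edgeR adjusted p = 3.28e-13). Gmnn, which encodes geminin, the inhibitor of Cdt1, fell too, and its levels were 29.7, 29.9 and 26.3 CPM in the Parental libraries, 8.59 and 9.28 CPM in BMFA3 and 6.08 and 8.72 CPM in CT1BA5. With a log2 fold change of -1.82 ± 0.12 (edgeR adjusted p = 2.81e-11) the inhibitor lay beside its target Cdt1.

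The 6 subunits of the helicase ring fell by unequal amounts. Mcm5 changed most, from 92.1, 91.6 and 90.4 CPM in Parental to 15.5 and 17.8 CPM in BMFA3 and 9.51 and 10.8 CPM in CT1BA5, a log2 fold change of -2.81 ± 0.07 (edgeR adjusted p = 2.97e-17). Mcm3 followed with -2.22 ± 0.07, and Mcm7, Mcm6, Mcm4 and Mcm2 lay between -1.77 and -1.50. Per kilobase of transcript the mean levels of the ring subunits ran from 34.4 (Mcm5) to 93.8 (Mcm7) CPM per kilobase in Parental, from 6.28 to 29.4 in BMFA3 and from 3.83 to 25.7 in CT1BA5, with the same genes at the ends. The highest subunit level was thus 2.72 times the lowest in Parental, 4.69 times in BMFA3 and 6.71 times in CT1BA5, in a complex whose protein subunits are known to be equimolar. Mcm7 overlaps Ap4m1 and Cops6, and as counting by strand is not stated its level is uncertain; without it the ratio, with Mcm2 highest, was 1.63, 3.52 and 4.69 in the same order.

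Mcm10, which helps to start the helicase, had the fewest counts of the replication genes and varied most between tumour libraries. Its levels were 10.1, 10.6 and 10.4 CPM in the Parental libraries, 0.853 and 1.92 CPM in BMFA3 and 0.841 and 0.0779 CPM in CT1BA5, and the last value rests on 1 count. The log2 fold change of -3.64 ± 0.28 (edgeR adjusted p = 4.94e-10) became -4.91 without CT1BA5 replicate 1. In CT1BA5 against Parental it was -4.37 ± 0.40, -6.91 without CT1BA5 replicate 1 and -3.61 without CT1BA5 replicate 2, and in BMFA3 against Parental -2.91 ± 0.32 and -3.59 without BMFA3 replicate 2. Cdc45, a helicase cofactor grouped with the other genes, had a log2 fold change of -2.16 ± 0.13 in both tumour groups together (edgeR adjusted p = 1.97e-11), and overlaps Ufd1.

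Pcna, the sliding clamp that holds DNA polymerase on its template, stood at 247, 236 and 219.5 CPM in the Parental libraries, 63.9 and 68.6 CPM in BMFA3 and 67.2 and 73.4 CPM in CT1BA5. The BMFA3 and CT1BA5 libraries overlapped each other and lay far below Parental, with a log2 fold change of -1.78 ± 0.06 (edgeR adjusted p = 2.52e-15). The enzymes that supply deoxynucleotides fell by unequal amounts. Rrm1 and Rrm2 encode the large and small subunits of ribonucleotide reductase. Rrm1 had the most counts of the 40 genes, at 566, 589 and 584 CPM in the Parental libraries, 329 and 347 CPM in BMFA3 and 214 and 229 CPM in CT1BA5. It fell 2.12-fold (log2 fold change -1.08 ± 0.05, edgeR adjusted p = 3.3e-13) but did not pass the test for over 2-fold, while Rrm2, whose protein is known to be made in S phase, fell 3.78-fold (-1.92 ± 0.06, edgeR adjusted p = 2.42e-16).

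Tyms, the gene of thymidylate synthase, changed least of all 40 genes, with 54.7, 46.5 and 47.04 CPM in the Parental libraries, 40.4 and 43.2 CPM in BMFA3 and 40.05 and 43.8 CPM in CT1BA5. The tumour libraries lay just below the lowest Parental library, and the log2 fold change was -0.23 ± 0.07 (edgeR adjusted p = 0.00897). Without Parental replicate 1, the highest library, it was -0.17 and no longer passed the test (edgeR adjusted p = 0.0653). Against Parental its calls in BMFA3 (-0.24, edgeR adjusted p = 0.0289) and CT1BA5 (-0.23, 0.0275) were both lost by DESeq2 (adjusted p = 0.056 and 0.0548) and without Parental replicate 1 (0.124 and 0.106). The call in BMFA3 was also lost without BMFA3 replicate 1 (edgeR adjusted p = 0.215) or replicate 2 (0.0639), and that in CT1BA5 without CT1BA5 replicate 1 (0.169) and with transcript length taken into account (0.0576).

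Entry into mitosis was represented by Cdk1 and its cyclins. Cdk1, the kinase that drives mitosis, stood at 90.1, 72.6 and 73.9 CPM in the Parental libraries, 24.9 and 29.1 CPM in BMFA3 and 30.9 and 31.6 CPM in CT1BA5, a log2 fold change of -1.44 ± 0.08 (edgeR adjusted p = 4.23e-12). Ccnb1, which encodes cyclin B1, fell further, to 12.2 and 12.6 CPM in BMFA3 and 9.06 and 11.8 CPM in CT1BA5 from 56.6, 45.99 and 47.8 CPM in Parental (-2.14 ± 0.10, edgeR adjusted p = 2.56e-13). Ccnb2, encoding cyclin B2, had a log2 fold change of -1.74 ± 0.10 (edgeR adjusted p = 2.62e-12). For each of these genes the lowest Parental library was over 2 times the highest tumour library.

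The mitotic kinases split. Plk1 (log2 fold change -1.94 ± 0.13) and Aurkb (-2.12 ± 0.13), kinases of spindle assembly and chromosome segregation, fell about 4-fold. Birc5 (-2.25 ± 0.14), which encodes survivin, a partner of Aurkb, fell 4.75-fold. Aurka, which encodes the centrosomal Aurora A kinase, fell 1.73-fold, with 26.96, 29.5 and 24.4 CPM in the Parental libraries, 13.3 and 15.4 CPM in BMFA3 and 13.7 and 20.3 CPM in CT1BA5 (log2 fold change -0.79 ± 0.12, edgeR adjusted p = 7.56e-06). Tpx2, whose product activates Aurora A on the spindle, had a log2 fold change of -1.42 ± 0.07. The spindle checkpoint genes Bub1 (-1.96 ± 0.16) and Bub1b (-1.64 ± 0.11), and Cdc20 (-2.10 ± 0.08) and Ube2c (-2.03 ± 0.10), which carry out the destruction of cyclin B, fell between 3- and 5-fold. All the genes of this paragraph were lower in both tumour groups together at an edgeR adjusted p of 7.56e-06 or less. Cdc20 overlaps Elovl1.

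Genes of the centromere and kinetochore held both the largest and the smallest change of the mitotic genes. Cenpf, a large kinetochore protein gene expressed late in the cycle, changed most of all 40 genes, with 20.9, 15.1 and 16.9 CPM in the Parental libraries, 2.19 and 1.66 CPM in BMFA3 and 0.388 and 0.779 CPM in CT1BA5 (log2 fold change -4.05 ± 0.20, edgeR adjusted p = 5.15e-13). Cenpe, the gene of a kinetochore motor, stood at 24.5, 23.6 and 23.9 CPM in the Parental libraries, 5.91 and 5.70 CPM in BMFA3 and 1.94 and 2.80 CPM in CT1BA5 (-2.70 ± 0.13, edgeR adjusted p = 2.9e-13). Both were lower in CT1BA5 than in BMFA3 libraries. The CT1BA5 values of Cenpf rest on 6 and 10 counts. Cenpa, which encodes the histone variant that marks the centromere, changed least of the mitotic genes, with 46.01, 34.9 and 31.7 CPM in the Parental libraries, 18.1 and 18.8 CPM in BMFA3 and 26.5 and 31.2 CPM in CT1BA5 (-0.69 ± 0.11, edgeR adjusted p = 1.39e-05). Its CT1BA5 libraries lay just below the lowest Parental library, and the decrease in that group (-0.37 ± 0.13, edgeR adjusted p = 0.0173) did not pass the test without CT1BA5 replicate 1 (adjusted p = 0.16) or without Parental replicate 1 (0.0971).

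Nusap1, a spindle microtubule gene that overlaps Oip5, fell from 28.2, 22.6 and 24.04 CPM to 6.70 and 4.97 CPM in BMFA3 and 2.13 and 3.11 CPM in CT1BA5 (-2.67 ± 0.14, edgeR adjusted p = 2.12e-12). Top2a, whose enzyme untangles the sister chromatids, stood at 129, 110.5 and 112 CPM in the Parental libraries, 36.9 and 33.9 CPM in BMFA3 and 24.4 and 16.5 CPM in CT1BA5. The CT1BA5 libraries lay below the BMFA3 libraries and both far below Parental, and the log2 fold change was -2.11 ± 0.09 (edgeR adjusted p = 4.06e-14).

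Mki67, the gene of the proliferation antigen Ki-67, stood at 39.4, 42.7 and 45.1 CPM in the Parental libraries, 5.60 and 6.30 CPM in BMFA3 and 1.55 and 1.17 CPM in CT1BA5. The 3 groups were fully separate, with a log2 fold change of -2.84 ± 0.13 in BMFA3 (edgeR adjusted p = 4.2e-13) and -4.94 ± 0.17 in CT1BA5 (edgeR adjusted p = 2.43e-15) against Parental. The cyclin genes of S phase differed. Ccne1 and Ccne2 encode E-type cyclins, which act with Cdk2 at the start of S phase. Ccne1 fell 1.91-fold, with 30.4, 31.4 and 28.6 CPM in the Parental libraries, 19.01 and 20.3 CPM in BMFA3 and 12.8 and 12.5 CPM in CT1BA5 (edgeR adjusted p = 1.26e-08). Ccne2 fell 7.47-fold, with 45.7, 35.4 and 33.9 CPM in the Parental libraries, 5.36 and 7.69 CPM in BMFA3 and 4.14 and 3.82 CPM in CT1BA5 (edgeR adjusted p = 1.88e-13). Ccna2, the cyclin A gene used from S phase to mitosis, had a log2 fold change of -2.73 ± 0.10, and Cdk2 one of -0.98 ± 0.09. Ccne2 overlaps Ints8, Ccna2 overlaps Exosc9 and Cdk2 overlaps Pmel.

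Transcription factor genes of the cycle fell by unequal amounts. E2f1, an activator of replication genes, stood at 30.5, 31.1 and 31.4 CPM in the Parental libraries, 22.5 and 21.1 CPM in BMFA3 and 17.1 and 21.6 CPM in CT1BA5. That was a log2 fold change of -0.60 ± 0.09 (edgeR adjusted p = 9.23e-06), the second smallest of the 40. Foxm1, the forkhead factor of mitotic genes, stood at 28.2, 27.1 and 22.8 CPM in the Parental libraries, 8.65 and 9.41 CPM in BMFA3 and 4.33 and 4.59 CPM in CT1BA5, and Mybl2, the gene of B-Myb, at 9.39, 7.42 and 8.78 CPM in the Parental libraries, 1.22 and 0.928 CPM in BMFA3 and 0.970 and 0.701 CPM in CT1BA5. Their log2 fold changes were -2.03 ± 0.12 (edgeR adjusted p = 5.98e-12) and -3.15 ± 0.22 (edgeR adjusted p = 9.42e-11).

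**Figure D3:**
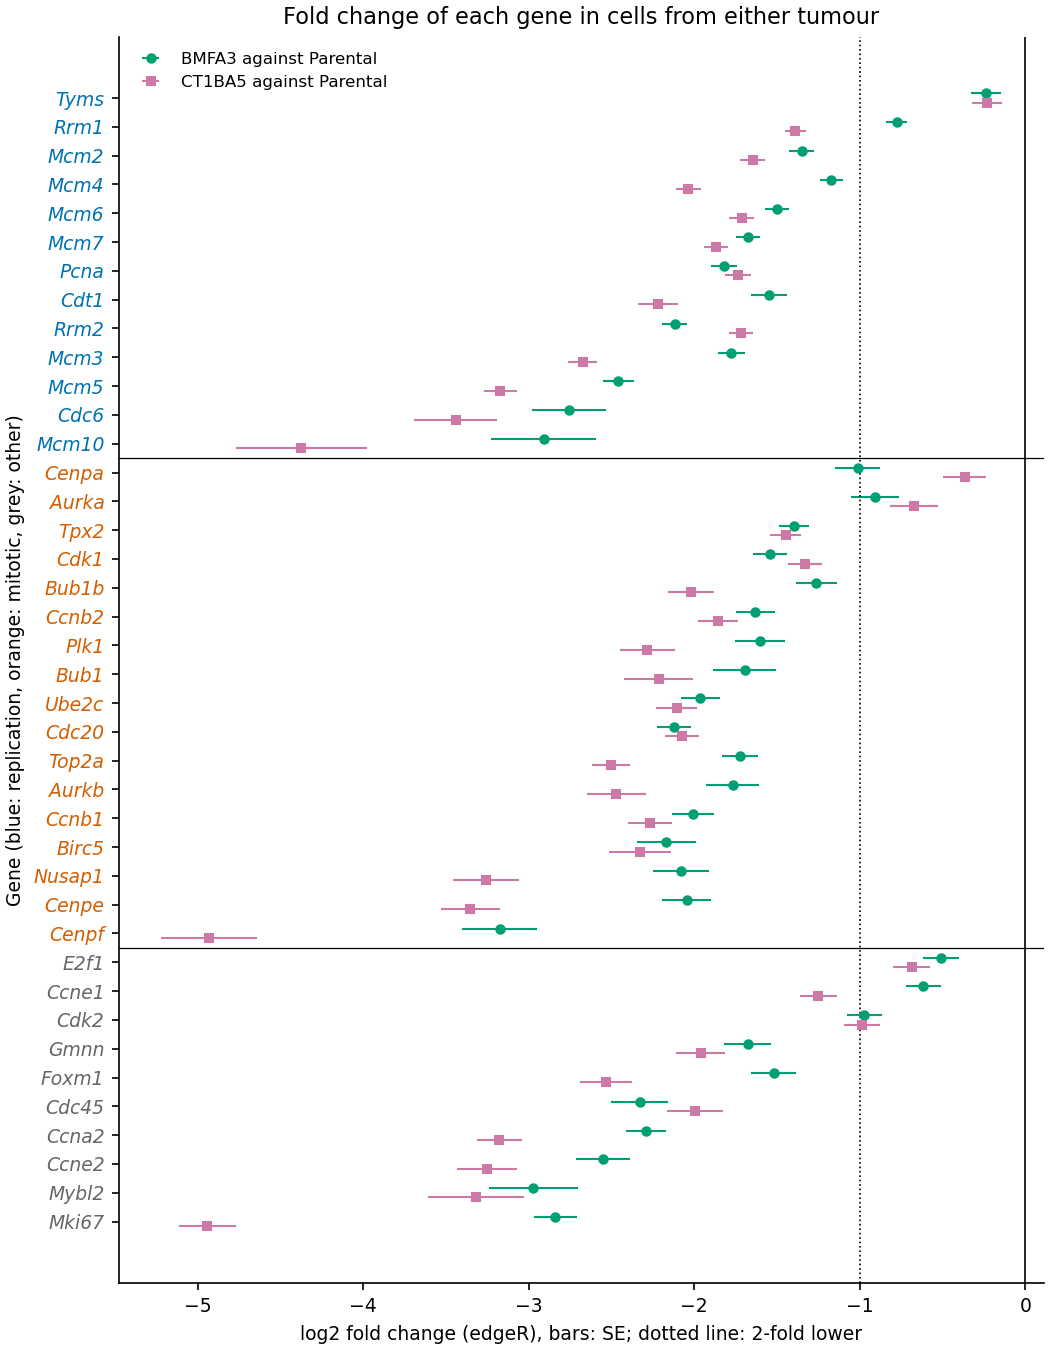
log2 fold change of each gene (x axis, edgeR, bars show SE) in BMFA3 (circles) and CT1BA5 (squares) against the same Parental libraries, by role, with a dotted line at 2-fold lower. All points lie left of 0, and the CT1BA5 values of Mki67 (-4.94) and Cenpf (-4.93) lie furthest left.

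Replication genes were then set beside mitotic genes. The 13 replication genes fell by a median of -1.78 and the 17 mitotic genes by a median of -2.03 in both tumour groups together (log2), a difference of -0.26. This difference was -0.05 in BMFA3 and -0.35 in CT1BA5 against Parental. As means over the genes in place of medians it was -0.05 in both tumour groups together and -0.03 in CT1BA5 against Parental. Within each library, the mean log2 CPM of the mitotic genes minus that of the replication genes was -1.34, -1.61 and -1.58 in Parental, -1.52 and -1.63 in BMFA3 and -1.66 and -1.37 in CT1BA5. These values overlapped between all groups, with a pooled SD within groups of 0.15, so that no shift between the classes stood out beyond the spread of libraries by that measure.

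Summed over genes, the replication class fell from 2006 to 2051 CPM in Parental to 809.7 to 838 CPM in BMFA3 and 615 to 646 CPM in CT1BA5, and the mitotic class from 656 to 767 CPM to 215 to 219 CPM and 191 to 197 CPM. The ratio of these sums, replication over mitotic, was 2.65 to 3.12 in Parental libraries, 3.76 and 3.82 in BMFA3 and 3.22 and 3.27 in CT1BA5, higher without overlap in both tumour groups. Rrm1 held a large share of the replication sum, and without this gene the ratio was 1.91 to 2.22 in Parental libraries, 2.23 and 2.24 in BMFA3 and 2.10 and 2.12 in CT1BA5, so that the CT1BA5 libraries lay within the Parental range and the BMFA3 libraries just above it. Parental replicate 1 had the highest mitotic sum and the lowest ratio.

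**Figure D4:**
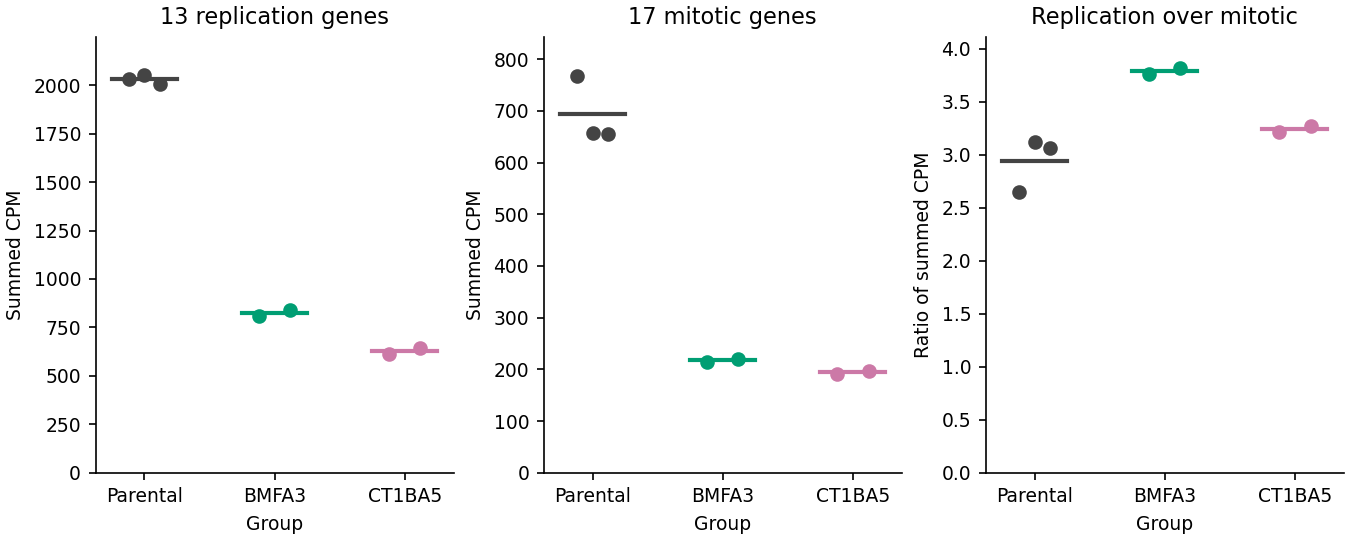
Summed CPM of the 13 replication genes and of the 17 mitotic genes, and the ratio of the sums, in each library by group (points), with a line at each group mean. The sums fell from 2006 to 2051 CPM (replication) and 656 to 767 CPM (mitotic) in Parental to at most 838 and 219 CPM in tumour libraries.

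The 2 tumour groups were next compared with each other by a direct test. Of the 40 genes, 21 were lower in CT1BA5 than in BMFA3 (background 25.3% lower), 2 were higher (background 25.5% higher) and 17 did not pass the test. The median log2 difference was -0.43, beside -0.01 over all tested genes. Libraries were lower without overlap for 25 genes (background 37.4%) and higher without overlap for 4 (37.0%). By role, 9 of 13 replication, 7 of 17 mitotic and 5 of 10 other genes were lower.

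Mki67 differed most, with a log2 difference of -2.10 ± 0.23 (edgeR adjusted p = 3.33e-07), and was the 1 gene lower by over 2-fold in the glmTreat test (background 3.66%); without CT1BA5 replicate 1 there were 2. Cenpf (-1.76 ± 0.42, edgeR adjusted p = 0.00167), Cenpe (-1.31 ± 0.22, 4.93e-05), Nusap1 (-1.18 ± 0.24, 0.000452) and Foxm1 (-1.02 ± 0.18, 0.000115) followed. Of the helicase ring, Mcm3 (-0.90), Mcm4 (-0.86) and Mcm5 (-0.71) were lower in CT1BA5 by over 1.6-fold, while Mcm2 (-0.30), Mcm6 (-0.21) and Mcm7 (-0.20) passed the test at smaller differences. The calls of Mcm6 and Mcm7 (edgeR adjusted p = 0.036 and 0.0467) were lost without BMFA3 replicate 1 (0.104 and 0.174), BMFA3 replicate 2 (0.17 and 0.135) or CT1BA5 replicate 1 (0.226 and 0.214), by DESeq2 (0.0577 and 0.0668) and with no count filter (0.0586 and 0.0859), that of Mcm6 also with length taken into account (-0.0908, 0.369) and that of Mcm7 with RLE scaling (0.0513) and without Parental replicate 2 (0.0675) or replicate 3 (0.0501). The call of Mcm2 was lost without BMFA3 replicate 1 (-0.21, 0.138), that of Aurkb without CT1BA5 replicate 2 (-0.43, 0.121), that of Plk1 without BMFA3 replicate 2 (0.0524) or CT1BA5 replicate 2 (0.079), and that of Ccne2 without BMFA3 replicate 2 (0.208) or CT1BA5 replicate 2 (0.061) and by limma-voom (0.0658). The difference of Mcm10 was -1.46 ± 0.56 (edgeR adjusted p = 0.0365), but -0.70 (0.283) without CT1BA5 replicate 2, -0.79 (0.379) without BMFA3 replicate 2 and -3.998 (0.00103) without CT1BA5 replicate 1. By DESeq2 it was -1.55 (0.114), with length taken into account -1.28 (0.0587) and without Parental replicate 1 -1.47 (0.0525).

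Rrm2 and Cenpa were higher in CT1BA5 than in BMFA3, by 0.40 ± 0.08 (edgeR adjusted p = 0.000399) and 0.64 ± 0.15 (0.00127). Rrm2 stood at 39.2 and 35.5 CPM in BMFA3 and 50.3 and 48.4 CPM in CT1BA5, whereas Rrm1, its partner subunit, was lower in CT1BA5 (-0.61 ± 0.07, edgeR adjusted p = 4.41e-07). Cdk1 (0.21 ± 0.12), Ccnb1 (-0.26 ± 0.15), Cdc20 (0.05 ± 0.12), Pcna (0.08 ± 0.09) and Tyms (0.00 ± 0.10) were among the 17 that did not pass. The median difference of the mitotic genes was -0.26 and that of the replication genes -0.61, but their difference of 0.35 became -0.02 without CT1BA5 replicate 2, 0.04 as means over the genes and -0.22 with Cdc45 and Gmnn counted as replication genes and Mki67 and Ccna2 as mitotic genes.

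These differences moved with transcript length. Over all tested genes, ranked by transcript length into 5 bins of equal size (median lengths 936, 1799, 2606, 3586 and 5613 bases), the median log2 difference of CT1BA5 against BMFA3 was 0.31, 0.14, -0.01, -0.11 and -0.35. Over the 40 genes, Spearman's rho between transcript length and the difference was -0.62 and Pearson's r with log2 length -0.74, against -0.34 and -0.20 over all genes; these describe genes measured in the same libraries. Mki67, Cenpf and Cenpe, the most reduced but for Mcm10, have the longest transcripts of the 40 (10061, 11130 and 7910 bases), and Cenpa the shortest (906 bases). Against Parental the medians ran from 0.36 to -0.36 over the same bins in CT1BA5 and from 0.05 to -0.04 in BMFA3.

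With the trend over all genes taken out, 22 of the 40 genes were lower and 2 higher in CT1BA5 than in BMFA3. The share of all genes called after that step was not counted. Before it, 25.3% of all genes were lower and 25.5% higher. The correlation with length was stronger over the 40 genes, and whether a part tied to length remained in them was not tested. Mki67 was then at -1.62 (edgeR adjusted p = 2.7e-06), Cenpf at -1.28 (0.0222), Cenpe at -0.82 (0.00622), Cenpa at 0.32 (0.0451) and Rrm2 at 0.38 (0.000189). The medians of the replication and mitotic genes were then -0.42 and -0.44 between the tumour groups, and -1.87 and -1.96 in both tumour groups together against Parental, a difference of -0.09.

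**Figure D5:**
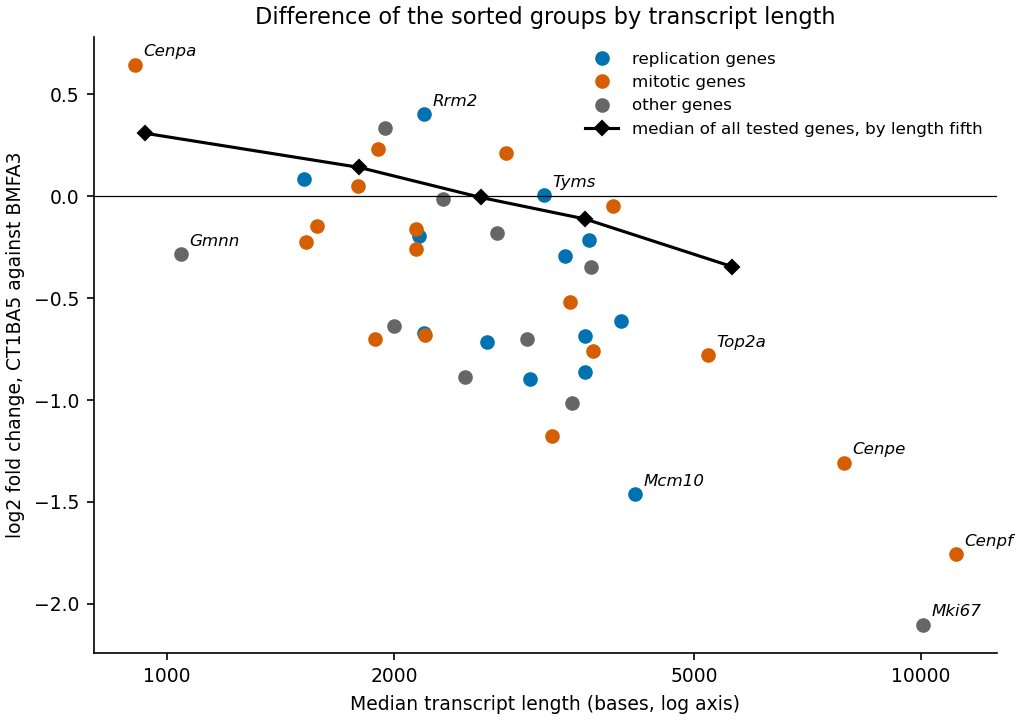
log2 difference of CT1BA5 against BMFA3 (y axis) by median transcript length (x axis, log scale) for each of the 40 genes, coloured by role, with black diamonds at the median of all tested genes in each of 5 length bins. The diamonds fall from 0.31 to -0.35, and most of the 40 genes lie below them.

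Beyond the 40 genes, lists of 166 further genes of the cell cycle were counted, all of them tested. In both tumour groups together 135 were lower and 20 higher, with 11 that did not pass, beside a background of 34.8% lower and 34.8% higher. All 10 mitotic kinesin genes, all 14 genes of spindle and cytokinesis and all 27 genes of the polymerases and the fork were lower. Among kinesins, Kif20b (-3.19) and Kif20a (-2.35) had the smallest p. Anln, the gene of the contractile ring protein anillin, fell from 336, 309 and 310.0 CPM to 42.1 and 40.8 CPM in BMFA3 and 17.5 and 13.4 CPM in CT1BA5 (log2 fold change -3.65 ± 0.07, edgeR adjusted p = 6.2e-19), and Prc1, a midzone gene, had -2.48 ± 0.10. At the fork, Lig1, the DNA ligase of Okazaki fragments, had -2.51 ± 0.08 and Rpa1, a single-strand binding subunit, -1.58 ± 0.06.

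Other lists were mostly lower with few genes that rose. Of 14 condensin, cohesin and separase genes 13 were lower, led by Smc2 (-2.50 ± 0.07) and Ncapg2 (-2.67 ± 0.09), and Pttg1, the gene of securin, rose (0.24 ± 0.10, edgeR adjusted p = 0.0455), with a call in CT1BA5 (0.54) and none in BMFA3 (-0.06, edgeR adjusted p = 0.69). Of 20 kinetochore and checkpoint genes 18 were lower, with Mad2l1 (-1.56 ± 0.09) and Knl1 (-3.50 ± 0.21) first by p, and Bub3 (0.13 ± 0.06, edgeR adjusted p = 0.0478) and Zwint (0.43 ± 0.06, 1.87e-06) rose; Bub3 was called in CT1BA5 (0.32) and not in BMFA3 (-0.06, edgeR adjusted p = 0.458). In origin recognition and firing 13 of 16 were lower, led by Wdhd1 (-2.55 ± 0.12) and Gins2 (-1.57 ± 0.11), and the origin recognition subunit genes Orc3 (0.37 ± 0.07, edgeR adjusted p = 0.000191) and Orc5 (0.40 ± 0.08, 0.000304) rose. Mitotic entry genes were lower for 11 of 12, with Pkmyt1 (-2.40 ± 0.13) and Fbxo5 (-3.33 ± 0.22) first, and nucleotide synthesis genes for 8 of 10, Tk1 (-2.37 ± 0.10), the gene of thymidine kinase 1, among them; in both tumour groups together none rose in either list. Ctps, named after its values were seen, rose in BMFA3 (0.53, edgeR adjusted p = 6.07e-07) and fell in CT1BA5 (-0.36, 6.45e-05), and Nme1, named in the same way, fell in BMFA3 (-0.47, 0.000231) and rose in CT1BA5 (0.58, 7.43e-06).

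The Rb, E2F and DREAM list had 11 of 17 genes lower, led by Rbl1, the gene of the pocket protein p107 (-1.76 ± 0.09), and E2f8 (-3.10 ± 0.19). E2f3 (0.28 ± 0.08, edgeR adjusted p = 0.0048), Lin37 (0.43 ± 0.14, 0.00825) and Rbbp4 (0.13 ± 0.05, 0.0295) rose. Against Parental, Lin37 and Rbbp4 passed the test in CT1BA5 (0.58 and 0.26) and not in BMFA3 (0.28 and 0.01), and E2f3 in BMFA3 (0.38) and not in CT1BA5 (0.17). Of 14 genes of the anaphase-promoting complex, which include its activator Fzr1 and the ubiquitin-conjugating enzyme Ube2s, 4 were lower and 7 higher (background 34.8% each), with Cdc16 (0.78 ± 0.06) and Anapc1 (-0.78 ± 0.06) first by p, and a median of 0.11.

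Genes of the D-type cyclins and kinase inhibitors were mixed, with 6 of 12 lower and 5 higher in both tumour groups together (background 34.8% each). Ccnd1, a cyclin D gene induced by growth factors, fell from 965, 1006 and 939 CPM to 216 and 223 CPM in BMFA3 and 119 and 101 CPM in CT1BA5 (-2.64 ± 0.06, edgeR adjusted p = 3.25e-18), and Ccnd2 had -1.52 ± 0.06. The 5 that rose in both tumour groups together, named after their values were seen, were Cdk4 and the inhibitor genes Cdkn1a, Cdkn1b, Cdkn2a and Cdkn2b. Against Parental, Cdkn1b and Cdkn2a were higher in BMFA3, and all of the 5 but Cdkn1b in CT1BA5. Cdkn2a rose by 0.46 in BMFA3 and 1.59 in CT1BA5 (log2, edgeR adjusted p = 9.24e-06 and 5.65e-14). Between the tumour groups 69 of the 166 genes were lower and 29 higher in CT1BA5 (background 25.3% lower and 25.5% higher). Of the further genes named, Orc5, Gins2, Lig1, Tk1, Kif20a, Bub3, Prc1, Pkmyt1, Lin37, Rbbp4, Fzr1, Ube2s, Ccnd1, Cdk4 and Cdkn1a overlap another expressed gene, and their levels are uncertain without strand.

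Markers of other cell types were summed beside these results. The 11 macrophage markers summed to 24.2 to 31.7 CPM in Parental, 39.4 to 42.0 CPM in BMFA3 and 38.8 to 39.2 CPM in CT1BA5, with Ptprc, C1qa, C1qb and C1qc at 0 in every library. Most of this sum was Cd14 and Cd68 in Parental; Fcgr3 went from 0.146 to 0.368 CPM in Parental to 2.74 and 2.85 CPM in BMFA3 and 8.47 and 8.25 CPM in CT1BA5, and Csf1r from 2.76 to 4.22 CPM to 9.69 and 6.89 CPM and 5.76 and 5.37 CPM. The 10 tumour epithelium markers went from 61.6 to 77.9 CPM to 16.1 to 19.01 CPM and 15.1 to 18.8 CPM. Krt7 was most of this sum in Parental, and Esrp1, Grhl2, Tff1 and Tff2 were at 0. Krt20 went from 0.437 to 1.10 CPM in Parental to 3.62 and 4.83 CPM in CT1BA5. Muc1 stood at 0.343 to 0.509 CPM in Parental, 1.46 and 1.26 CPM in BMFA3 and 0.518 and 0.156 CPM in CT1BA5. The 8 endothelial markers went from 97.5 to 108 CPM to 27.7 to 28.8 CPM and 21.3 to 25.1 CPM, most of it Kdr, with Tie1 at 0. Egfl7, another of them, went the other way, from 1.01 to 2.85 CPM in Parental to 4.02 and 4.04 CPM in BMFA3 and 5.69 and 10.8 CPM in CT1BA5. The 9 lymphocyte markers summed to at most 0.779 CPM and the 5 erythroid markers to at most 1.29 CPM. The 8 acinar markers summed to 1.08 to 1.56 CPM in Parental, 2.85 to 4.14 CPM in BMFA3 and 3.69 to 5.996 CPM in CT1BA5. Most of this sum was Cela1. The part of any of these cells in the results was not tested.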

How the data were processed

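RNA sequencing libraries of cultured PanMeso cells (Parental, n = 3) and of eGFP-positive cells sorted from BMFA3 (n = 2) and CT1BA5 (n = 2) tumours were analysed. The deposited table holds raw counts per Ensembl gene, whole numbers that were not normalized. Per the submitters' processing notes, CASAVA, DESeq2 1.24.0 and the mm10 build were used; no aligner, counter, annotation or strand setting is given in the sources used here. Overlapping genes are therefore named as uncertain. Total RNA was extracted with a column kit, per the labels' protocols.

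Gene names, coordinates and transcript lengths come from GENCODE M21, which matched 54495 of 54532 identifiers. Genes passing edgeR's filterByExpr (minimum count 10) numbered 13784 and held 99.92% of counts. All 7 libraries entered 1 fit with the 3 groups and no covariate in edgeR 4.0.16 (R 4.3.3, limma 3.58.1), with TMM scaling, the quasi-likelihood F test, glmTreat for changes over 2-fold, and Benjamini-Hochberg adjustment over all tested genes at 0.05. Standard errors are the log2 fold change divided by the root of F. The script was tested on simulated data with 200 changed genes. Same-numbered replicates did not vary together, and no libraries were duplicates, since counts of replicates differed by more than sampling noise.

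The genes and lists were chosen with earlier results of these data known. Every library's value is given for Mki67, Top2a, Cdk1, Ccnb1, Mcm5, Pcna, E2f1, Foxm1 and Gmnn, and for the 3 largest and 2 smallest log2 fold changes of each role. Of each further list, the 2 genes of smallest p are named, and every gene that rose where 4 or fewer did; other genes were named after their values were seen, and 1 gene that the rule names is not reported here. Alternatives were DESeq2 1.42.0, limma-voom, other scalings, no count filter, an adjusted p of 0.01, a replicate block, each library left out, other summaries of the lists and, chosen after seeing the data, offsets that remove the trend with transcript length in 20 bins. Promoter windows are from RefSeq (GRCm38.p6).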

Additional observations from a re-analysis of the deposited data

Results flagged for a closer look

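For 23 of the 40 genes the effect in BMFA3 and in CT1BA5 tumours differed by edgeR's direct test of CT1BA5 against BMFA3 (adjusted p under 0.05 over all tested genes, 2 libraries a group). Of these, 21 were lower in CT1BA5 (background 25.3% of all genes) and 2 higher (background 25.5%). Calls in either direction were thus common over all genes. Of the replication genes, the log2 difference was -1.46 for Mcm10, -0.90 for Mcm3, -0.86 for Mcm4, -0.71 for Mcm5, -0.67 for Cdt1, -0.61 for Rrm1, -0.30 for Mcm2, -0.21 for Mcm6 and -0.20 for Mcm7, and Rrm2 was higher by 0.40. The value of Mcm10 rests on 13 and 1 counts in CT1BA5.

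Of the mitotic genes, the log2 difference was -1.76 for Cenpf, -1.31 for Cenpe, -1.18 for Nusap1, -0.78 for Top2a, -0.76 for Bub1b, -0.70 for Aurkb and -0.68 for Plk1, and Cenpa was higher by 0.64. Among the others it was -2.10 for Mki67, -1.02 for Foxm1, -0.89 for Ccna2, -0.70 for Ccne2 and -0.63 for Ccne1. Each difference lies beside a trend with transcript length over all genes, from 0.31 in the shortest of 5 length bins to -0.35 in the longest. With that trend taken out, Mki67 was at -1.62, Cenpf at -1.28, Nusap1 at -1.16 and Cenpa at 0.32, all past the test. Mcm6 (-0.0908, edgeR adjusted p = 0.369) and Mcm10 (-1.28, 0.0587) then did not pass it. The calls of Mcm2, Mcm6, Mcm7, Mcm10, Aurkb, Plk1 and Ccne2 also depended on single libraries, as described above.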

How the results depend on the processing

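No gene that passed the test reversed direction under any alternative. The difference between mitotic and replication genes in CT1BA5 against BMFA3 changed sign under some alternatives. Against Parental, 39 to 40 of the 40 genes were lower in both tumour groups together and in BMFA3, and 38 to 40 in CT1BA5, with the lost calls in Tyms and Cenpa. Library totals alone moved the median of all genes by -0.16 in both tumour groups together, and also by -0.16 in CT1BA5 against BMFA3. The genes' median relative to it did not change in direction. In CT1BA5 against BMFA3 that relative median was -0.43 both with TMM scaling and with library totals alone. Shares of all genes called were not counted under the alternatives. Between tumour groups, 16 to 21 genes were lower without 1 library, 18 by DESeq2, 20 by limma-voom and 27 by library totals alone; 2 to 3 were higher. Genes lower by over 2-fold there numbered 1 to 2 without 1 library, the 2 being without CT1BA5 replicate 1. DESeq2 and limma-voom gave no glmTreat count.

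The mitotic minus replication difference in both tumour groups together was -0.0529 as a mean over the genes and -0.0925 with length-adjusted offsets, and in CT1BA5 against Parental -0.0343 as a mean. Between tumour groups it was -0.22 with broad lists, 0.0371 as a mean, -0.0192 with length-adjusted offsets and from -0.0180 (without CT1BA5 replicate 2) to 0.41 without 1 library. Replication windows with CHR numbered 2 with TTTGAA or TTCGAA. Same-numbered libraries correlated at -0.101 to 0.0769. No variation shared by number was seen, but with 2 libraries in a tumour group this cannot show that samples were unpaired. A replicate block gave 40, 39 and 40 genes lower against Parental, and 18 lower and 2 higher between tumour groups. Its mitotic minus replication differences were -0.22, -0.10, -0.42 and 0.35. Calls not past the threshold with the block were those of Tyms in BMFA3 (edgeR adjusted p = 0.0509) and, between tumour groups, Mcm6 (0.0615), Mcm7 (0.102) and Mcm10 (0.0587). Depth limits Mcm10, Mybl2, Cenpf, Cdc6 and Mki67, which have few counts in CT1BA5. The counts in its 2 libraries were 24 and 15 for Mki67, 25 and 13 for Cdc6, 15 and 9 for Mybl2 and 6 and 10 for Cenpf.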
